A study of Homo sapiens with 36 samples.

Results

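Aminoacyl-tRNA synthetases are the enzymes that join each amino acid to its transfer RNA. Human cells keep separate sets for protein synthesis in the cytosol and in mitochondria, and both sets are encoded in the nucleus. A pair of genes, GARS1 for glycine and KARS1 for lysine, provide the enzyme of both compartments. Uncharged transfer RNA and other stresses lead to phosphorylation of eIF2 alpha, which favours translation of the transcription factor ATF4, and ATF4 is known to act on genes of amino acid synthesis, amino acid transport and transfer RNA charging. The genes described here are 35 synthetase genes out of 60675 genes in the deposited table. They were taken by symbol, and names ending in 2 were counted as mitochondrial (16 genes) and the others as cytosolic or shared (19 genes, called the cytosolic list). All 35 were found in the table.

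The study used the medicinal monkshood Aconitum carmichaeli Debeaux (ACD) and asked whether brain-derived or intestine-derived cells respond to it more. SW1783, an astrocytoma line, and HT29, a colorectal adenocarcinoma line, were treated for 24 h and sequenced as 36 libraries in 12 groups of 3 replicates. In each line, batch B held vehicle and a hot water extract of ACD at 500 µg/mL (high), 100 µg/mL (medium) and 20 µg/mL (low), and batch A held vehicle and 10 µM wortmannin, a PI3K inhibitor used as positive control. The labels give 0.1% DMSO as vehicle in both batches. The batches are named only by the letters in the labels, and nothing states that the replicates were separate cultures, so that p-values measure the spread between these libraries. Each line derives from a single tumour.

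Total counts were 18863863 to 26436867 per library in SW1783 and 15941255 to 33866644 in HT29. Vimentin reached at least 4076 CPM (counts scaled to a fixed library total) in SW1783 and at most 0.133 CPM in HT29, and EPCAM at most 0.202 and at least 452.1 CPM. GFAP, the defining astrocyte marker, was at most 0.261 CPM in SW1783. Other markers were less clear-cut. KRT18, chosen for HT29, was at 68.7 to 249.6 CPM in SW1783 (at least 3099 in HT29). CD44, chosen for SW1783, was at 380.3 to 577.4 CPM in HT29 (at least 1974 in SW1783). PTPRC, chosen for other cells, was at 3.28 to 14.2 CPM in SW1783. Vehicle libraries of batches A and B with the same replicate number differed by 1.21 to 1.28 times the variance of counting alone in HT29, against 1.97 to 7.63 times for different numbers, and by 1.33 to 1.48 against 1.42 to 2.26 times in SW1783. The vehicles of both batches may therefore not be independent samples. In the HT29 high dose group, replicate 2 differed from replicates 1 and 3 by 31.3 and 30.2 times the counting variance, while replicates 1 and 3 differed from each other by 1.92 times, so that values without it are given beside the results of this group. Mitochondrial ribosomal RNA took 0.932% of the counts in SW1783 vehicle of batch B and 3.14%, 7.83% and 5.93% at the low, medium and high dose. In HT29 it took 1.18% in vehicle and 1.09%, 2.1% and 12.0%. The share was thus highest at the medium dose in SW1783. The part of mitochondrial ribosomal RNA in the results was not tested. Changes are therefore given on counts scaled by DESeq2 size factors, which follow the typical gene and not the total.

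Promoter windows were available for 30 of the 35 genes (RefSeq, GRCh38.p14, 250 bases before to 50 bases after a single start site per gene). They are shown because the element TGATGNAA, known as the C/EBP-ATF response element (CARE) at which ATF4 can bind, was found in 6 of the 16 cytosolic windows (37.5%) and in 1 of the 14 mitochondrial windows (7.14%), and in 3.67% of 27305 windows of all genes. Both strands were searched, and the element overlaps none of the other motifs named here. Capitals mark the match, each stretch is written 5′ to 3′ on the strand of its gene, and at most 30 bases after the start are shown.
TARS1, chr5:33440931-33440994, plus strand: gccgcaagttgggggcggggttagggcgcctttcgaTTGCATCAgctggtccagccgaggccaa
IARS1, chr9:92293668-92293746, minus strand: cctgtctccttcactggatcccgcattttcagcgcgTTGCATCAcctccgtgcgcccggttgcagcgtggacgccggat
CARS1, chr11:3057394-3057461, minus strand: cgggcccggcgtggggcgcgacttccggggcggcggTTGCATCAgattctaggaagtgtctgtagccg
MARS1, chr12:57488028-57488097, plus strand: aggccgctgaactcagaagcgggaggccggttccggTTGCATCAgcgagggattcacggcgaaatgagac
AARS1, chr16:70289650-70289729, minus strand: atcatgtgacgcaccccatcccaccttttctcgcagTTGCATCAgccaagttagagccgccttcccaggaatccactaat
NARS1, chr18:57621807-57621858, minus strand: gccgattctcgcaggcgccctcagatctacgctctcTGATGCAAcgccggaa
YARS2, chr12:32756051-32756130, minus strand: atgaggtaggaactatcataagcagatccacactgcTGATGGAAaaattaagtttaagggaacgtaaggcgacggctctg

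All 6 cytosolic matches are the same letters, TGATGCAA, read on the gene's own strand in NARS1 and on the opposite strand, as TTGCATCA, in the other 5. Counted from the start site, the first base of the match lies at −13 in IARS1, −4 in MARS1, −2 in CARS1, 3 in TARS1 and 15 in NARS1, and at −187 in AARS1. YARS2 holds a different form of the element, TGATGGAA, at −197. The cyclic AMP response element TGACGTCA was found in none of the 30 windows. The E-box CACGTG was found in 1 of 16 cytosolic and 3 of 14 mitochondrial windows (7.43% of all windows) and the palindromic NRF1 element in 0 of 16 and 1 of 14 (1.36% of all windows). No window was given for LARS1, VARS1, YARS1, AARS2 and VARS2. A match is a run of letters and not a measured binding site. Matches and missing matches hold for the start site searched, which in CARS2, GARS1 and MARS1, among others, lay inside the gene as annotated.

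Before treatment, the cytosolic genes were the more abundant ones. On a scale per transcript length (counts per kilobase of the canonical transcript, scaled to the same total in each library), the median level in vehicle of batch B was 131.6 for the cytosolic list and 17.3 for the mitochondrial list in SW1783, and 104.2 and 21.6 in HT29. In SW1783 the highest levels on this scale were those of WARS1, the tryptophan enzyme (218.5 ± 1.93, SD, n = 3), IARS1, the isoleucine enzyme (211.3 ± 8.52), and GARS1 (195 ± 6.51). The lowest was that of MARS2, the mitochondrial methionine enzyme (6.00 ± 0.631). In HT29 the order began with KARS1 (210.1 ± 16.8), TARS1, the threonine enzyme (191.3 ± 17.0), and YARS1, the tyrosine enzyme (153.4 ± 14.9), and WARS1 was at 66.3 ± 5.10. The 3 libraries of neighbouring genes in the order did not overlap for 18 of 34 neighbours in SW1783 and for 6 of 34 in HT29, so that most neighbours in HT29 could not be ranked. The mitochondrial list had its highest member in SW1783 in CARS2, the cysteine enzyme, at 133.1, above 10 of the 19 cytosolic genes. By raw counts, the least covered member had at least 155 counts per vehicle library in SW1783 (MARS2) and 173 in HT29 (FARS2). On the scale per transcript length the lowest in HT29 was PARS2, at 9.13.

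The high dose of ACD in SW1783 raised most of the cytosolic synthetases. Of the 19 cytosolic genes, 12 were upregulated and none was downregulated, and of the 16 mitochondrial genes none was called in either direction by DESeq2 or edgeR. A differentially expressed gene (DEG) had a Benjamini-Hochberg adjusted p-value under 0.05 in the Wald test of DESeq2 and a change of more than 1.5-fold. Among all genes tested, 8.66% were upregulated and 18.2% were called in either direction. The median log2 fold change was 0.89 for the cytosolic list (1.85-fold) and 0.08 for the mitochondrial list (1.06-fold), beside −0.01 over all genes tested. Counts are relative to the RNA of each library, so that a change in RNA per cell could not be told apart from these values.

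**Figure D1:**
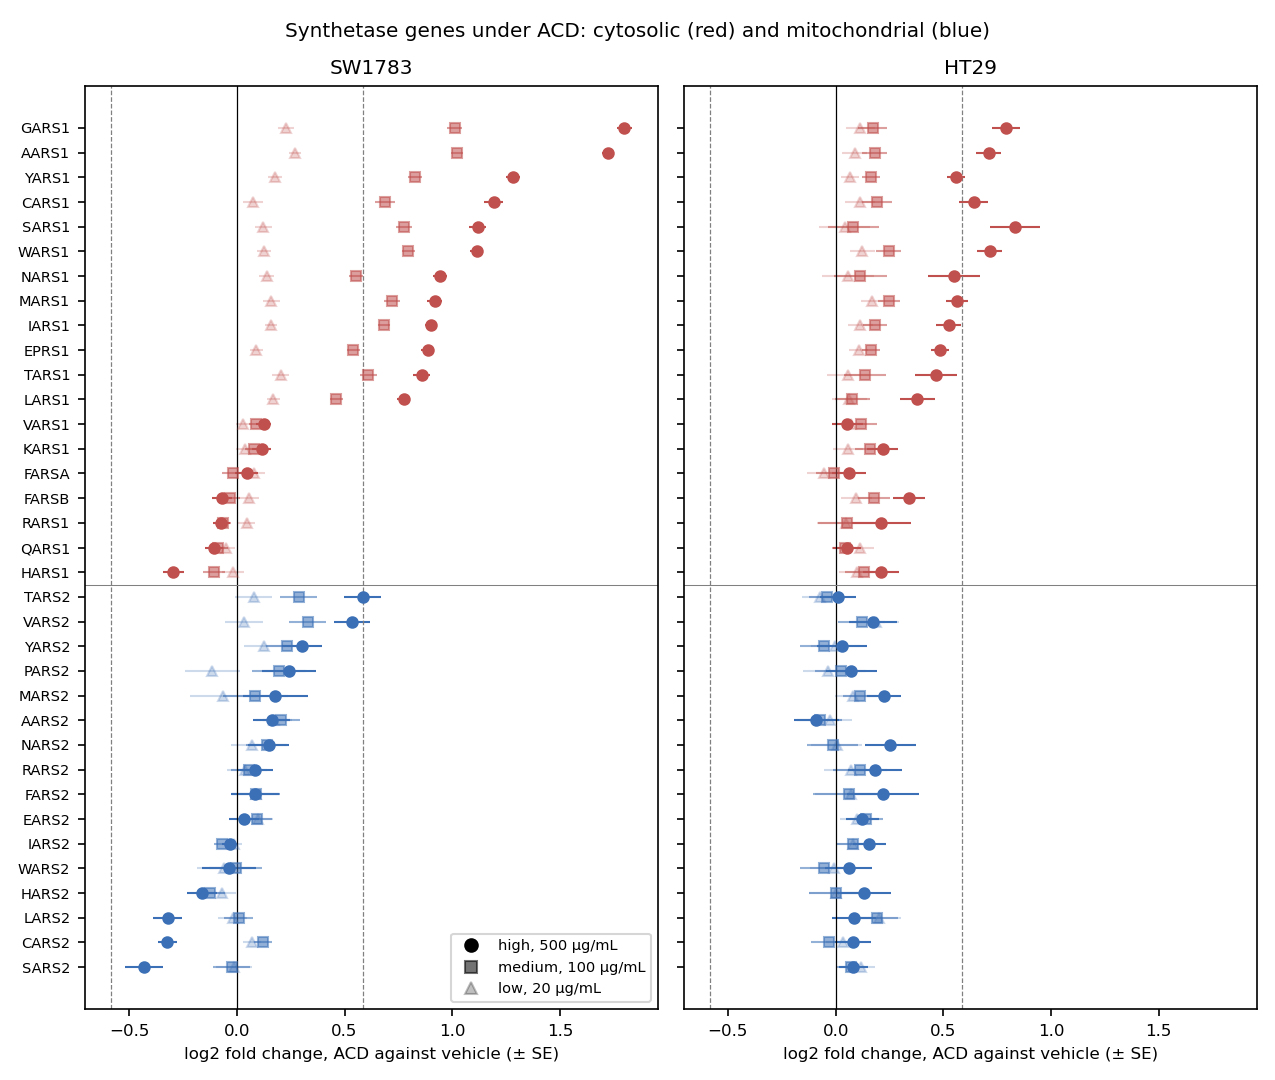
Log2 fold change (± SE) of the 35 synthetase genes at each ACD dose against the vehicle of batch B, in SW1783 (left) and HT29 (right). Cytosolic genes (red) are above the line and mitochondrial genes (blue) below it, dashed lines mark 1.5-fold, and in SW1783 the 12 upper cytosolic genes lie between 0.78 and 1.80 at the high dose while the mitochondrial genes lie between −0.43 and 0.58.

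GARS1, which charges glycine in both compartments, had 4086, 4198 and 3983 normalized counts in vehicle and 13898, 14039 and 14778 under the high dose. All treated libraries were more than 3 times as high as any vehicle library, and the log2 fold change was 1.80 ± 0.036 (SE), a fold of 3.48 with a 95% interval of 3.32 to 3.66. AARS1, the alanine enzyme, had 3760, 3910 and 3779 counts in vehicle and 12558, 12615 and 12639 at the high dose, with a log2 fold change of 1.72 ± 0.027. The treated libraries of AARS1 were closer together than its vehicle libraries. The adjusted p-values of GARS1, AARS1 and YARS1 in DESeq2 were below what the software prints.

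YARS1, the tyrosine enzyme, rose from 3159, 3201 and 3249 normalized counts to 7717, 7705 and 7943, by 1.28 ± 0.032 on the log2 scale. CARS1, the cysteine enzyme, had 1291, 1238 and 1202 counts in vehicle and 2830, 2824 and 2876 at the high dose, with a log2 fold change of 1.19 ± 0.045 (adjusted p of DESeq2 = 1.75e-156). In both genes the libraries of vehicle and high dose were far apart. SARS1, the serine enzyme, rose from 2475, 2554 and 2631 counts to 5394, 5678 and 5546, by 1.12 ± 0.038 (DESeq2 adjusted p = 4.97e-185). WARS1, whose gene is also known to respond to interferon, rose from 4928, 4985 and 4976 counts to 10653, 10456 and 11096, by 1.11 ± 0.030 (DESeq2 adjusted p = 9.76e-304).

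NARS1, the asparagine enzyme, had 3310, 3276 and 3286 normalized counts in vehicle and 6284, 6388 and 6278 at the high dose, with a log2 fold change of 0.94 ± 0.032. MARS1, the cytosolic methionine enzyme, rose from 2760, 2834 and 2726 counts to 5329, 5210 and 5187, by 0.92 ± 0.037. MARS1 overlaps DDIT3 on the opposite strand, and DDIT3 itself rose by 3.91 ± 0.064, so that reads of this overlap could not be assigned where the counting did not use strand, which the sources used here do not state. The other 4 upregulated genes were IARS1 (0.90), EPRS1, which carries the glutamate and proline enzymes in a single protein (0.89), TARS1 (0.86) and LARS1, the leucine enzyme (0.78). None of the 12 overlapped between vehicle and high dose, which is a description of genes chosen by this contrast (30.6% of all genes had every treated library above every vehicle library).

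The other 7 cytosolic genes were not called, and their log2 fold changes ran from −0.29 to 0.12. KARS1, the other gene that serves both compartments, had 3332, 3250 and 3323 normalized counts in vehicle and 3702, 3332 and 3694 at the high dose. Replicate 2 of the high dose lay level with vehicle replicate 1, so that the groups overlapped, and the log2 fold change was 0.11 ± 0.042, a fold of 1.08 with a 95% interval of 1.02 to 1.15, against 3.48 for GARS1. HARS1, the histidine enzyme, was at the low end, with a log2 fold change of −0.29 ± 0.050 (adjusted p of DESeq2 = 2.09e-08, within 1.5-fold). VARS1, the valine enzyme, was at the high end at 0.12 ± 0.034. FARSA and FARSB, the 2 subunits of the phenylalanine enzyme, were at 0.04 ± 0.052 and −0.07 ± 0.046, RARS1, the arginine enzyme, at −0.07 ± 0.039, and QARS1, the glutamine enzyme, at −0.11 ± 0.043. The intervals of these 7 genes reach no higher than 1.15-fold.

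Of the 7 genes with a CARE match the 6 cytosolic ones were upregulated. Of the 12 upregulated cytosolic genes 10 had a promoter window and 6 of these held a match, while none of the 6 windows of cytosolic genes that were not called did. The upregulated genes whose window held no match were GARS1, SARS1, WARS1 and EPRS1, and GARS1 had the largest change of all 35. YARS2, the only mitochondrial gene with a match, had a log2 fold change of 0.30 ± 0.093 and was not called. These counts are a description of few genes and carry no test.

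**Figure D2:**
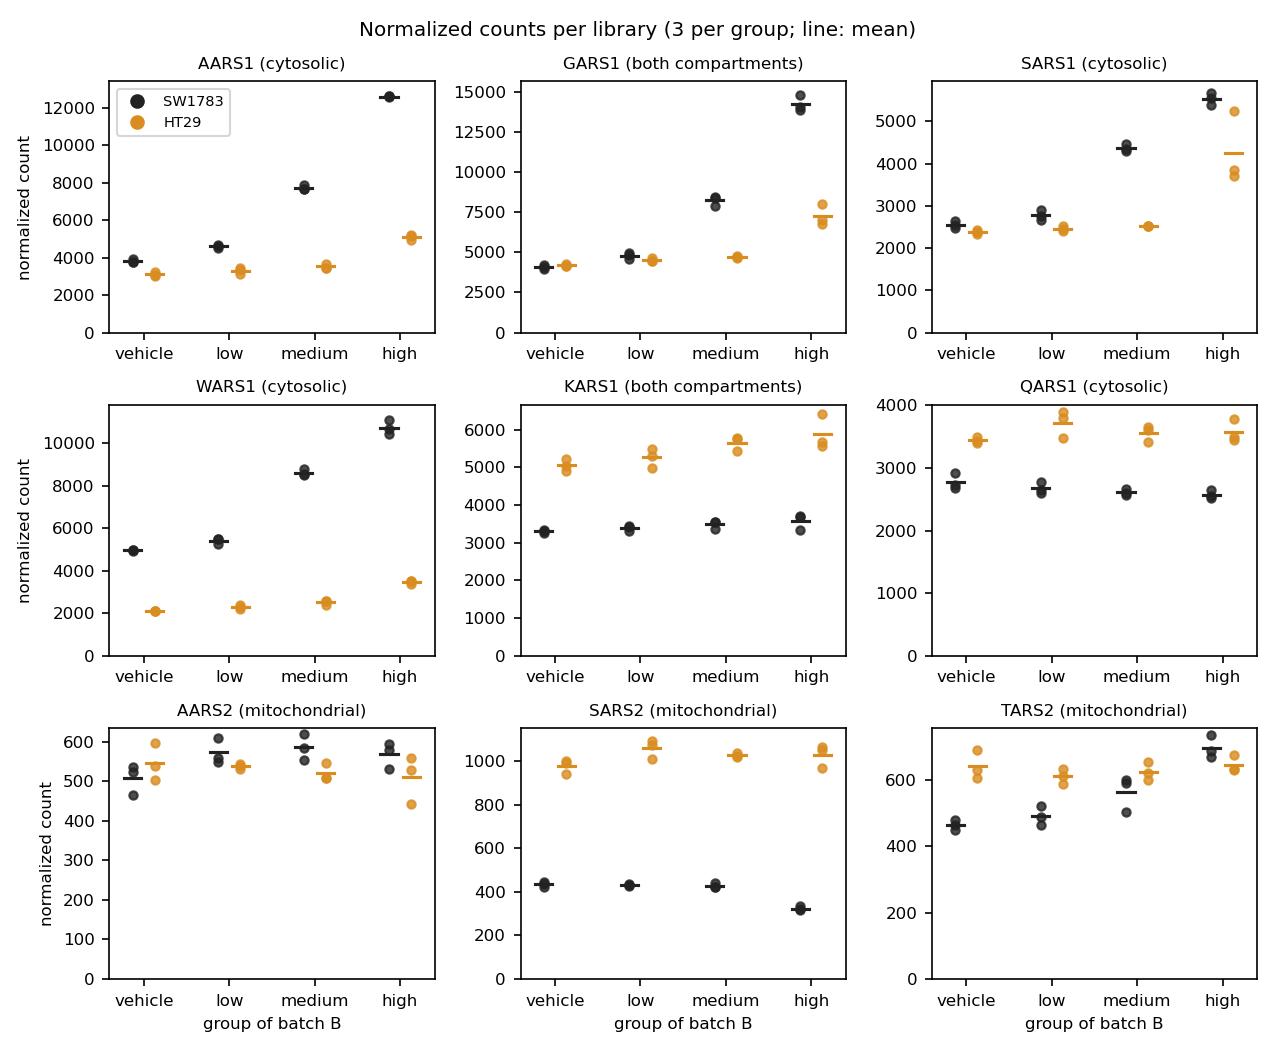
Normalized counts (vertical axes, from 0) of 9 synthetase genes in the 12 batch B libraries of SW1783 (black) and of HT29 (orange), by group, with a line at each mean of 3 libraries. AARS1, GARS1, SARS1 and WARS1 rise with dose in SW1783, where AARS1 goes from 3816 to 12604, while KARS1, QARS1 and the mitochondrial AARS2 stay near their vehicle level and SARS2 is lower at the high dose (323 against 435).

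Mitochondrial genes moved less and in both directions. TARS2, the threonine enzyme, came closest to the threshold, with a log2 fold change of 0.58 ± 0.084 (adjusted p of DESeq2 = 3.1e-11) just under 1.5-fold, and it was called when high dose replicate 1, high dose replicate 2 or vehicle replicate 1 was left out. VARS2 (0.53 ± 0.085) and YARS2 (0.30 ± 0.093) also passed the adjusted p alone in the upward direction. SARS2 (−0.43 ± 0.088), CARS2 (−0.32 ± 0.043), LARS2 (−0.32 ± 0.068) and HARS2 (−0.16 ± 0.068) passed it in the downward direction. By this p alone 23 of the 35 genes passed, of which 14 cytosolic and 3 mitochondrial genes were higher and 2 and 4 were lower, where 23.9% of all genes were higher and 22.6% lower. VARS2 and SARS2 share 4073 and 1492 exonic bases with longer genes on the same strand, and HARS1 and HARS2 overlap head to head on opposite strands, so that their counts are uncertain where reads had to be divided.

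Pairs of enzymes for the same amino acid made the contrast visible within an amino acid. For the 13 amino acids with 1 gene of their own in each list, the cytosolic log2 fold change was the larger one in 10, with a median difference of 0.93. The pair furthest apart was that of alanine, at a difference of 1.56. AARS2, the mitochondrial enzyme, had 535, 523 and 465 normalized counts in vehicle and 579, 532 and 595 at the high dose, so that its libraries overlapped while those of AARS1 did not (values above). The ratio of AARS1 to AARS2 counts was 7.03, 7.48 and 8.12 in vehicle and 21.7, 23.7 and 21.2 at the high dose. Serine (1.55) and cysteine (1.52) followed, both with the mitochondrial partner lower. The reverse order was found among these for valine (−0.41), arginine (−0.16) and histidine (−0.13). Phenylalanine, with 2 cytosolic subunit genes, and glutamate and proline, which share EPRS1, were not counted among the 13. FARSA and FARSB were below FARS2 by −0.04 and −0.15, and EPRS1 was above EARS2 by 0.85 and above PARS2 by 0.64. In valine, the ratio of VARS1 to VARS2 went from 9.18, 9.03 and 9.93 to 6.92, 6.76 and 7.47.

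**Figure D3:**
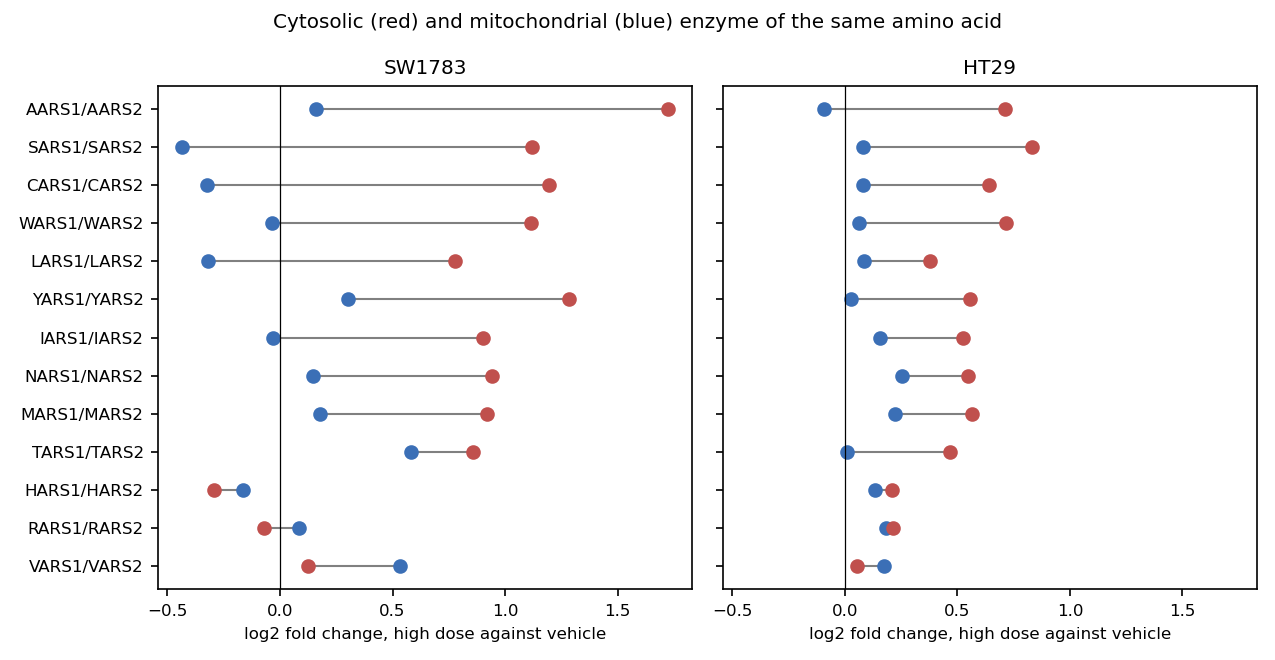
Log2 fold change at the high dose against vehicle (horizontal axis) for the cytosolic (red) and the mitochondrial (blue) enzyme of each of 13 amino acids in SW1783 (left) and HT29 (right), ordered by the difference in SW1783. The red point is to the right in 10 of 13 pairs in SW1783 and in 12 of 13 in HT29.

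The split also ran through the multisynthetase complex, a particle in which several cytosolic synthetases are held together. Of its 7 synthetases in the list, EPRS1, IARS1, LARS1 and MARS1 were upregulated and KARS1, QARS1 and RARS1 were not, with log2 fold changes from −0.11 to 0.92 and a median of 0.78. Its scaffold genes AIMP1, AIMP2 and EEF1E1 were called in 0 of 3 cases, with values of 0.10, 0.36 and 0.15, and so few genes cannot be told from the 18.2% called among all genes. Summed over the cytosolic list, the level outside mitochondrial ribosomal RNA was 3352, 3348 and 3318 CPM in the vehicle libraries and 5978, 6013 and 6087 CPM at the high dose. The mitochondrial list summed to 592, 576 and 570 CPM in vehicle and 557, 557 and 555 CPM at the high dose. The cytosolic sums did not overlap and were higher, and the mitochondrial sums were lower. CARS2, an abundant member, made up 104, 104 and 107 CPM in vehicle and 83.2, 80.8 and 81.2 CPM at the high dose. Without CARS2, a choice made after seeing the data, the mitochondrial sums were 488, 473 and 463 CPM in vehicle and 474, 476 and 473 CPM at the high dose, and overlapped.

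In the cytosolic list the medium dose gave the same picture with smaller changes, against the same 3 vehicle libraries. Of the cytosolic genes 9 were upregulated (AARS1, CARS1, GARS1, IARS1, MARS1, SARS1, TARS1, WARS1 and YARS1) and none was downregulated, and no mitochondrial gene was called, beside 2.34% of all genes upregulated and 3.81% called. The median log2 fold change was 0.55 for the cytosolic and 0.09 for the mitochondrial list. AARS1 had 7651, 7693 and 7875 normalized counts at this dose, 1.02 ± 0.028 above vehicle on the log2 scale. GARS1 had 7874, 8381 and 8458 counts (1.01 ± 0.036), and YARS1 had 5578, 5766 and 5671 (0.82 ± 0.033). All of these libraries lay between those of vehicle and of the high dose. By adjusted p alone 13 cytosolic and 5 mitochondrial genes were higher (15.1% of all genes) and no member was lower (14.5%). EPRS1 (0.54), NARS1 (0.55) and LARS1 (0.46) were among those that passed the adjusted p but not the fold. The mitochondrial genes that passed were thus all higher, while at the high dose they went in both directions.

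At the low dose no synthetase was called in SW1783, where 0.0967% of all genes were upregulated and 0.118% were called. At an unadjusted p under 0.05 in DESeq2 12 members were higher (2.79% of all genes with a p-value) and none lower, and edgeR called 0 members as well. The 30802 genes with a p-value include less covered genes without an adjusted p-value, which 9304 genes had. Such shares, here and below, are therefore not a like background for the members and are not read as a difference. An adjusted p-value was given for 31 of the 35 genes, since DESeq2 left out 4 mitochondrial genes. By adjusted p alone 9 cytosolic genes were higher (2.05% of all genes) and no member was lower, and the largest of these log2 fold changes were 0.27 ± 0.029 for AARS1 and 0.23 ± 0.037 for GARS1. The median was 0.12 for the cytosolic list and 0.04 for the mitochondrial list. The order of doses is described here without a test, since the 12 genes were chosen at the high dose against the same vehicle libraries. Their means rose at each step of dose in 12 of 12 cases, against 2 of the other 7 cytosolic and 5 of the 16 mitochondrial genes. All 3 medium libraries lay above all vehicle libraries for 12 of the 12 (25% of all genes), 2 of the 7 and 7 of the 16. All 3 low libraries did so for 11 of the 12, the exception being CARS1, for 1 of the 7 and for 2 of the 16 (14.1% of all genes). For the 12 genes, the gain at the medium dose was 40.9 to 72.5% of that at the high dose (median 53.7%).

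In HT29 the high dose raised fewer synthetases, and again cytosolic ones. AARS1, CARS1, GARS1, SARS1 and WARS1 were upregulated (5 of 19), none was downregulated and no mitochondrial gene was called, beside 1.29% of all genes upregulated and 2.92% called. These 5 genes were called without replicate 2 of the high dose as well, together with MARS1 (1.78% of all genes upregulated in that fit). The median log2 fold change was 0.48 for the cytosolic list and 0.10 for the mitochondrial list, and 0.37 and 0.05 without replicate 2. By adjusted p alone 14 cytosolic genes and no mitochondrial gene were higher (4% of all genes), and none was lower. Without replicate 2 there were 14 cytosolic and 3 mitochondrial genes, EARS2, MARS2 and VARS2 (9.89% of all genes).

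SARS1 had the largest change of HT29 with all libraries, while WARS1 (0.73) and GARS1 came before it without replicate 2. It had 2439, 2390 and 2343 normalized counts in vehicle and 3698, 5240 and 3846 at the high dose. This is 0.83 ± 0.117 on the log2 scale (adjusted p of DESeq2 = 2.01e-10), and it was 0.66 without replicate 2, the highest of the 3. GARS1 had 4142, 4141 and 4269 counts in vehicle and 6744, 7984 and 7022 at the high dose, with a log2 fold change of 0.79 ± 0.066, and 0.72 without replicate 2. WARS1 had 2094, 2128 and 2123 counts in vehicle and 3527, 3368 and 3512 at the high dose (0.71 ± 0.058, and 0.73 without replicate 2). In all these genes vehicle and treated libraries did not overlap, which is a description of genes chosen by this contrast. Of all genes, 10.4% had every treated library above every vehicle library. AARS1 (0.71) and CARS1 (0.64) completed the calls, at 0.70 and 0.63 without replicate 2.

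KARS1 in HT29 had 5028, 4905 and 5233 normalized counts in vehicle and 5679, 6408 and 5573 at the high dose, a log2 fold change of 0.22 ± 0.070 (adjusted p of DESeq2 = 0.0301, within 1.5-fold), and of 0.15 without replicate 2. Replicate 2 was again the highest library, as it was for NARS1 (4564, 6342 and 4534), RARS1 (2575, 3927 and 2736) and TARS1 (7786, 10010 and 7807), which were named after their values were seen. All 12 genes upregulated in SW1783 had a positive log2 fold change in HT29, between 0.38 for LARS1 and 0.83, and between 0.34 and 0.73 without replicate 2. The 7 cytosolic genes that were not called in SW1783 ran from 0.05 to 0.34, with FARSB at the upper end, and from 0.0031 to 0.28 without replicate 2. Of the 13 amino acid pairs, 12 had the larger log2 fold change on the cytosolic side, with a median difference of 0.37, and 11 of 13 with a median of 0.32 without replicate 2. FARSA was below FARS2 by −0.16 and FARSB above it by 0.12, outside this count. Summed levels outside mitochondrial ribosomal RNA were 2940, 3128 and 3193 CPM for the cytosolic list in vehicle and 4200, 4366 and 4293 CPM at the high dose, and 557, 580 and 609 CPM against 633, 647 and 648 CPM for the mitochondrial list.

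At the medium dose no synthetase was called in HT29 (0.827% of all genes were called), and EPRS1, MARS1, WARS1 and YARS1 passed by adjusted p alone (1.15% of all genes higher), at 0.16 to 0.25. At an unadjusted p under 0.05, 10 members were higher by DESeq2 (3.08% of all genes with a p-value), and edgeR also called 0. At the low dose no member passed by either measure (0.315% called), 5 were higher at an unadjusted p under 0.05 (1.91% of all genes with a p-value), and edgeR called 0 as well. The cytosolic and mitochondrial medians were 0.16 and 0.04 at the medium dose and 0.09 and 0.05 at the low dose. The means of the 12 genes rose at each dose in HT29 too, against 4 of the other 7 cytosolic and 3 of the 16 mitochondrial genes. For the 12 genes the gain at the medium dose was 7.46 to 39.0% of that at the high dose (median 25.5%). All of these shares were below the lowest share in SW1783. All 3 low dose libraries exceeded the vehicle libraries for 5 of the 12 (11.2% of all genes), for 1 of the other 7 cytosolic and for 4 of the 16 mitochondrial genes.

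Differences between the lines were tested as interactions, that is, the change in SW1783 minus the change in HT29 in a joint DESeq2 fit. At the high dose 3 of the 35 genes were called, all larger in SW1783, beside 6.86% of all genes larger and 14.6% called in either direction. So few calls are not read as a difference from these shares. By adjusted p alone 12 members were higher (12.7% of all genes) and 8 lower (15%). The called genes were AARS1 (0.97 ± 0.053), GARS1 (0.97 ± 0.070) and YARS1 (0.68 ± 0.043), and they were 0.98, 1.03 and 0.68 without replicate 2 of the HT29 high dose, where SARS2 (−0.60) was also called. In HT29, AARS1 went from 3033, 3096 and 3214 to 5148, 5207 and 4953 normalized counts, a log2 fold change of 0.71. Normalized counts were scaled within each line, so that they are not compared between lines. YARS1 went from 4373, 4627 and 4577 to 6528, 6741 and 6736 in HT29, a log2 fold change of 0.56. SARS1 and WARS1, which also rose in HT29, were not called in this test. Without replicate 2 of the HT29 high dose their differences were 0.41 and 0.33, within 1.5-fold.

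At the medium dose 4 genes were called, all larger in SW1783, beside 1.81% larger and 3.34% called among all genes. AARS1 and GARS1 differed by 0.82 ± 0.054 and 0.82 ± 0.070, SARS1 by 0.67 ± 0.119 and YARS1 by 0.64 ± 0.044. SARS1 had 4291, 4351 and 4470 normalized counts at the medium dose in SW1783 against 2475 to 2631 in vehicle, and 2532, 2530 and 2526 in HT29 against 2343 to 2439. AARS1 had 3681, 3445 and 3471 counts and GARS1 4674, 4711 and 4748 counts at this dose in HT29. Across genes, which are not independent replicates, the log2 fold changes of the cytosolic list at the high dose had a Pearson's r of 0.898 and a Spearman's rho of 0.909 between lines (19 genes), and those of the mitochondrial list −0.021 and −0.071 (16 genes). Without replicate 2 of the HT29 high dose Pearson's r was 0.919 and 0.0939. These are given as a description of values that share the libraries of each line.

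**Figure D4:**
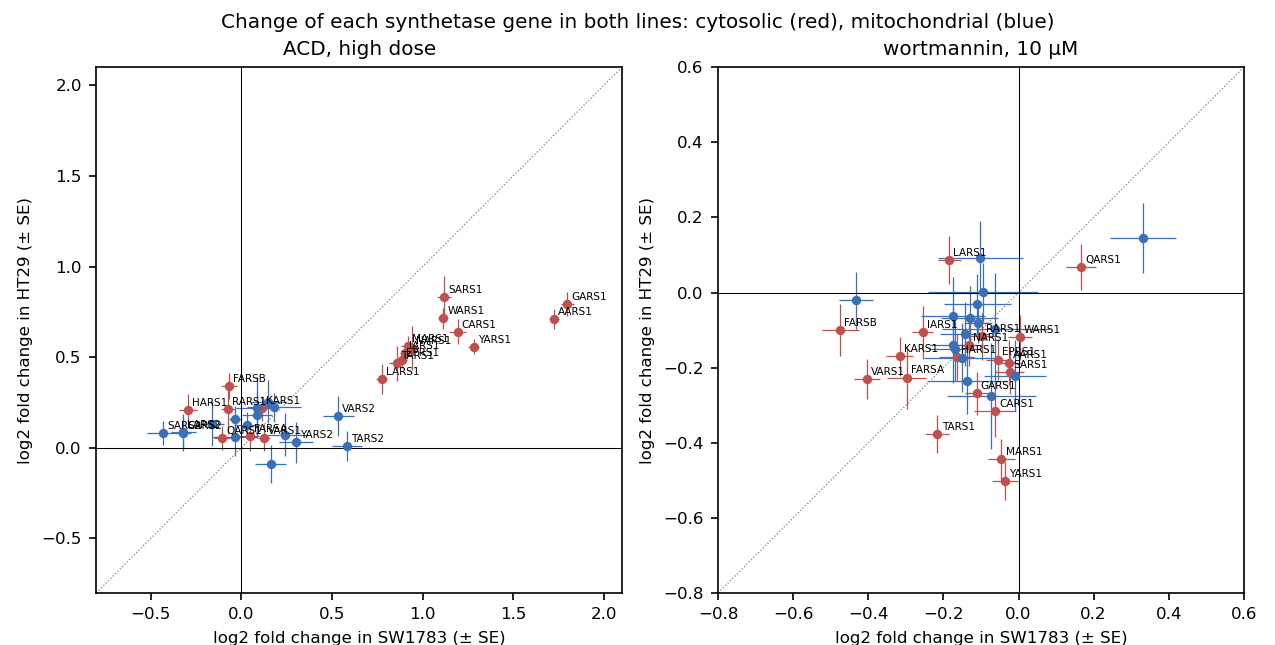
Log2 fold change of each synthetase gene in SW1783 (horizontal) and HT29 (vertical), with SE bars, at the high dose of ACD (left) and under wortmannin (right). Red points are cytosolic, blue points mitochondrial and the dotted line marks equal change. At the high dose the 12 genes upregulated in SW1783 lie below the dotted line and above 0, and under wortmannin all genes lie between −0.50 and 0.33 in both lines.

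Wortmannin called no synthetase in either line, beside 2.72% of all genes called in SW1783 and 2.65% in HT29. At an unadjusted p under 0.05 in DESeq2, 19 members passed in SW1783 (19.9% of all genes with a p-value) and 16 in HT29 (15.3%), and edgeR called 0 in both lines. These shares run over 29261 and 27583 genes, of which only 13944 and 13678 had an adjusted p-value. The share among genes covered as well as the members was not counted. Lower values prevailed by adjusted p alone. In SW1783, 11 cytosolic and 4 mitochondrial genes were lower (20.1% of all genes), and QARS1 (0.17 ± 0.040) and VARS2 (0.33 ± 0.087) were higher (13.8%). The values furthest down were −0.48 for FARSB, −0.43 for CARS2 and −0.40 for VARS1. In HT29, 12 cytosolic genes and YARS2 were lower (11.1% of all genes) and none was higher, with YARS1 (−0.50), MARS1 (−0.44) and TARS1 (−0.38) furthest down.

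The medians under wortmannin were −0.11 for the cytosolic and −0.12 for the mitochondrial list in SW1783, and −0.18 and −0.09 in HT29. The interaction of line and wortmannin was called for no member by DESeq2 or edgeR (3.36% of all genes), and 13 members had an unadjusted p under 0.05 (11.6% of all genes with a p-value). By adjusted p alone 5 members were higher and 5 lower (5.33% and 9.53% of all genes), among them YARS1 (0.44 ± 0.044) and CARS2 (−0.43 ± 0.072), which were the ends of the range. WARS1 had a log2 fold change of −0.12 in HT29 while 8 of the 9 interferon-inducible genes with a value were upregulated there (1.92% of all genes), among them IFI44L (3.74), XAF1 (3.11) and MX2 (3.08).

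**Figure D5:**
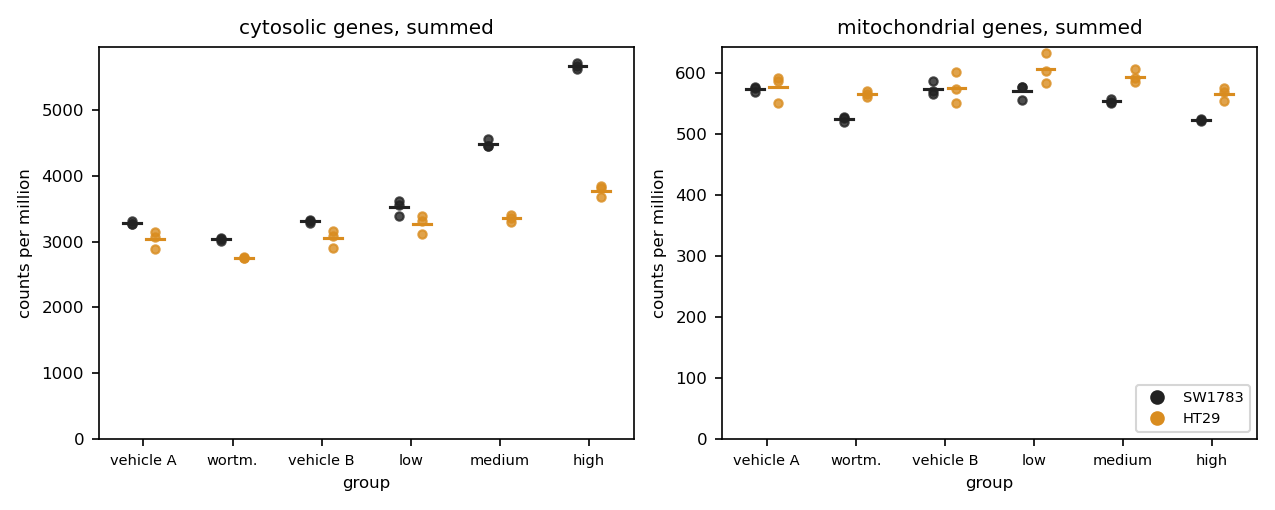
Summed CPM of the 19 cytosolic (left) and 16 mitochondrial (right) synthetase genes in each of 36 libraries, by group, for SW1783 (black) and HT29 (orange), with a line at each mean. The cytosolic sum in SW1783 goes from 3308 in vehicle B to 5669 at the high dose, and the mitochondrial sum from 574 to 523 on this scale, which includes mitochondrial ribosomal RNA.

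The vehicles of both batches were compared as well. No synthetase was called in SW1783 (0.00348% of all genes called) or in HT29 (0%), by DESeq2 or by edgeR, and the members' log2 differences lay between −0.07 and 0.09 in the first line and between −0.13 and 0.13 in the second. At an unadjusted p under 0.05 in DESeq2, 1 member passed in SW1783 and 0 in HT29, beside 255 of 28731 genes (0.888%) and 50 of 27558 genes (0.181%). With the likeness of same-numbered vehicle libraries described above, this comparison may understate the spread between separate cultures.

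Genes of related pathways were counted in the same fits. Of 27 genes of the amino acid response, 23 were upregulated at the high dose in SW1783 (8.66% of all genes), with a median log2 fold change of 1.60, 21 at the medium dose (2.34%) and 2 at the low dose (0.0967%). The largest changes were those of ATF3 (4.73 ± 0.165), a stress-induced transcription factor, TRIB3 (4.31 ± 0.056), a pseudokinase, and DDIT3 (3.91 ± 0.064), which encodes CHOP. In HT29, 17 of the 26 with a value were upregulated at the high dose (1.29% of all genes), led by CHAC1 (2.99), ASNS, the asparagine synthetase (2.08), and DDIT4 (1.83). The kinases of eIF2 alpha were called in 0 of 4 cases at the high dose in SW1783, cytosolic elongation factors in 0 of 7 and mitochondrial translation factors in 0 of 12, with medians of 0.11, 0.12 and 0.02, where 18.2% of all genes were called. Counts of 0 in lists of this size are not read as a difference from that share.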

How the data were processed

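The authors prepared directional mRNA libraries, trimmed the reads, aligned them to GRCh38 with STAR 2.7.3a and quantified genes with RSEM 1.3.3 (versions per the submitters' processing notes). The deposited table holds RSEM expected counts of 60675 genes, not normalized, and 8.84% of its values are not whole. They were rounded here. RSEM divides reads with several positions by a model, which can affect genes with overlapping or similar copies. The strand setting was not given in the sources used here.

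Gene groups came from the labels. DESeq2 1.42.0 (R 4.3.3, Wald test, two-sided, default size factors), the test the study names, was fitted to all groups of a line and batch, each treatment was set against its own batch's vehicle, and p-values were adjusted over all genes tested. A call needed an adjusted p under 0.05 and a change of more than 1.5-fold. Interactions used all libraries of a batch in both lines. Scripts were checked on simulated data. A count of 0 would allow 3 counts, or 0.089 to 0.188 CPM, for counting error only.

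Numbers of replicates paired the vehicles of both batches (correlation of deviations of same-numbered libraries 0.213 to 0.304 in SW1783 and 0.534 to 0.807 in HT29) and not treatments with vehicles. The variance between libraries was set against counting variance over genes with at least 100 counts in a pair.

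Gene members and related lists were chosen with earlier results of these data known. Per-library values are given for the 8 largest calls in SW1783 at the high dose, up to 3 calls per direction elsewhere, KARS1, GARS1 and the amino acid pair furthest apart. From the related lists up to 3 genes each were named. One related list is not reported here. Levels use canonical transcript lengths and gene overlaps come from GENCODE v44 on GRCh38. The study's methods name GRCh38 and also hg19, so positions were used in no test. Alternatives were edgeR 4.0.16 (quasi-likelihood), TMM scaling, a low-count filter, only the groups compared, a replicate block, no fold threshold, and leaving out each library.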

Additional observations from a re-analysis of the deposited data

Results flagged for a closer look

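The change under ACD differed between the cell lines by the test of the interaction in DESeq2 for 3 of 35 genes at the high dose and 4 at the medium dose. In each case the larger change was in SW1783. Among all genes 14.6% were called in either direction and 6.86% were larger in SW1783 at the high dose, and 3.34% and 1.81% at the medium dose. The 3 calls at the high dose are not read as a difference from these shares. In SW1783 all treated libraries of the called genes lay above all vehicle libraries. This held for 30.6% of all genes at the high dose and 25% at the medium dose, and the genes were chosen from the same libraries. At the high dose the differences on the log2 scale were 0.97 for AARS1 (adjusted p = 3.13e-71), 0.97 for GARS1 (adjusted p = 7.63e-42) and 0.68 for YARS1 (adjusted p = 2.13e-54). At the medium dose they were 0.82 for AARS1 (adjusted p = 1.43e-48), 0.82 for GARS1 (adjusted p = 1.2e-28), 0.67 for SARS1 (adjusted p = 9.7e-07) and 0.64 for YARS1 (adjusted p = 7.33e-46). The high and medium doses share their vehicle libraries. No group of 4 to 10 samples was present, so that no library was tested as standing apart.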

How the results depend on the processing

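The 33 calls of single members by DESeq2 were retained under edgeR, TMM size factors, the low-count filter, a fit of only the groups compared, the replicate block and each left-out library, in 398 of 398 comparisons. Without the fold threshold the counts of members rose to 23 (SW1783 high), 18 (medium), 9 (low) and 17 (wortmannin), to 14 (HT29 high), 4 (medium) and 13 (wortmannin), and to 20, 15 and 10 for the interactions with high dose, medium dose and wortmannin. By adjusted p alone, 23.9% of all genes were higher and 22.6% lower in SW1783 high. In the same order the shares were 15.1% and 14.5% (medium), 2.05% and 1.24% (low), and 13.8% and 20.1% (wortmannin). In HT29 they were 4% and 3.62% (high), 1.15% and 0.942% (medium), and 7.63% and 11.1% (wortmannin). For the interactions they were 12.7% and 15% (high dose), 4.26% and 6.18% (medium dose), and 5.33% and 9.53% (wortmannin). The summed cytosolic level in SW1783 vehicle was 3164 CPM on TMM-scaled library sizes, against 3308. Leaving out 1 library at a time, members called ranged from 12 to 13 (SW1783 high, TARS2 joining), stayed at 9 (medium), ranged from 5 to 6 (HT29 high, NARS1 or MARS1 joining) and from 3 to 4 (interaction with high dose, SARS2 or HARS1 joining with the lower change in SW1783), stayed at 4 (interaction with medium dose), and were 0 elsewhere. The difference between the cytosolic and mitochondrial medians ranged from 0.79 to 0.83 (SW1783 high), 0.44 to 0.47 (medium), 0.065 to 0.11 (low) and 0.00024 to 0.041 (wortmannin), where it was 0.0085 with all libraries and the upper value is that without vehicle replicate 3. In HT29 it ranged from 0.32 (without high dose replicate 2) to 0.43 (high), 0.087 to 0.13 (medium), 0.017 to 0.055 (low) and −0.11 to −0.067 (wortmannin). The summed cytosolic level ranged from 3302 to 3319 CPM in SW1783 and from 2998 to 3124 CPM in HT29. The cause of these shifts was not tested. With the replicate number as a block, 12, 9 and 5 members were called for SW1783 high, SW1783 medium and HT29 high, the interactions gave 3 and 4, and the vehicle comparisons 0, so that the block changed no call. With 3 libraries per group, a change within 1.5-fold was outside the definition of a call, and the uneven HT29 high dose group gave SEs up to 0.168.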
